A study of Mus musculus with 16 samples.

Results

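The genes described here are the expressed mouse genes named Zfp with a number, which code for zinc finger proteins. Of 53850 genes in the deposited table, 364 carry such a symbol and are protein-coding, leaving out the RNA-binding gene Zfp36. Of these, 265 had a mean of at least 200 normalised read counts over the 16 libraries and form the set, while 8 were at 0 in every library. The genes were selected on this mean level, so their levels are given as a description, and a test between groups uses the same values. The means lying just inside the limit were 207 for Zfp93, 217 for Zfp583 and 219 for Zfp78, and those just outside were 195 for Zfp558, 194 for Zfp667 and 188 for Zfp784. With every library scaled to the same total, the same 265 genes met the rule. A mean of at least 200 within each of the 4 groups was reached by 255 of them, and 264 were above 10 in each library.

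Microglia, the resident macrophages of the brain, had been sorted by flow cytometry from the cortex of C57BL/6J mice, and their RNA was amplified with a low-input kit before sequencing. The question was how they respond to PLX3397, an inhibitor of the receptor Csf1r on whose signal microglia depend, and whether the sexes differ in it. The 4 groups of 4 libraries were males fed PLX3397 chow for 1 week, males fed control chow for 1 week, females fed PLX3397 chow for 1 week and females fed control chow for 1 week, called PLX and control below. The dose, the ages, the sort gate and whether the 4 samples of a group came from separate animals are not given in the sources used here, so p-values measure only the spread between these samples.

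A classical zinc finger is a short fold in which a pair of cysteines and a pair of histidines hold a zinc ion, and a chain of such fingers reads a DNA sequence. Many Zfp genes also code for a KRAB domain, which recruits the co-repressor Trim28 and, through it, the histone methyltransferase Setdb1, so that the bound site is packed into heterochromatin. KRAB zinc finger genes lie in clusters of near-copies and are known above all for silencing retroelements, while zinc finger genes without KRAB include activators, chromatin proteins and RNA-binding proteins.

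The library totals ran from 32641505 to 39584145 normalised counts in male PLX libraries, against 39478735 to 41596631 in male control libraries, and from 41574208 to 42268064 in female PLX libraries, against 38410670 to 44162201 in female control libraries. Because the male PLX totals are lower, each main result is also given with every library scaled to the same total. That scaling moves the median log2 change over all genes tested in males to 0.18, beside 0.02 as deposited. Reads estimated from the spacing of low values were 22000000 to 78600000 per library. They were fewer in male PLX libraries, at 29700000 to 39000000, than in male control libraries, at 42200000 to 78600000, without overlap. In females they overlapped, at 22000000 to 72300000 on PLX and 29400000 to 38600000 on control chow. Genes at 10 or more numbered 17939 to 18967 in male PLX and 17637 to 17928 in male control libraries, again without overlap. The part of depth in the male calls was not tested. Male control sample 4 stood apart with 516 normalised counts of the female-specific RNA Xist, against 14.7 to 31.4 in the other 7 male libraries and 5542 to 10450 in female libraries, though its Y-linked genes were at male levels. Male PLX sample 3 stood apart in neutrophil genes, with 14420 of S100a8 against 2020 to 3184 in the other male PLX libraries. Without both, the counts of calls in males given further on were 0 higher and 8 lower in place of 1 and 11.

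The summed level of 10 microglial marker genes, P2ry12, Tmem119 and Cx3cr1 among them, was 1058000 to 1502000 normalised counts in male PLX libraries, against 2339000 to 2523000 in male control libraries. In females it was 1692000 to 1923000 in PLX libraries and 2229000 to 2735000 in control libraries. The sum of 11 neutrophil marker genes was 10700 to 75100 in male PLX libraries and 531 to 3668 in male control libraries, and 1046 to 3485 in female PLX libraries and 203 to 271 in female control libraries. The neutrophil gene Ly6g was at 0 in all 8 control libraries, but S100a8, S100a9, Ltf, Ngp and Lcn2 were above 0 in every male control library. In female control libraries most of the sum came from Cxcr2, at 197 to 266, against 173 to 211 in female PLX libraries. The sum of 6 monocyte marker genes was 1032 to 6231 in male PLX libraries and 589 to 1013 in male control libraries, and 581 to 876 in female PLX libraries and 592 to 764 in female control libraries. In males Chil3 had 407 to 4879 on PLX and 0 to 303 on control chow, and Fn1 was also higher without overlap. Ccr2 leaned the other way, with 83.9 to 256 on PLX and 204 to 339 on control chow, which overlapped. Ly6c2, Plac8 and Vcan overlapped between the male groups too.

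The sum of 9 border-associated macrophage marker genes was lower on PLX without overlap, at 726 to 1235 in male PLX and 2213 to 3238 in male control libraries, and at 1023 to 1496 in female PLX and 1686 to 3877 in female control libraries, with Lyve1 and Cd209f at 0 in all 4 male PLX libraries. Not all of these markers followed the sum. Ms4a7, Cbr2 and Clec10a overlapped between PLX and control in both sexes, and Mrc1 and Lyve1 overlapped in females. Ms4a7 had 103 to 248 on PLX and 127 to 247 on control chow in males. The sum of 4 endothelial genes was 352 to 564 in male PLX and 925 to 1684 in male control libraries, and 507 to 807 in female PLX and 1280 to 1445 in female control libraries. Most of it came from Pecam1, while Cldn5 was at 0 in all libraries but 1. Mitochondrial genes took 0.591% to 0.676% of the counts in male PLX libraries and 0.297% to 0.325% in male control libraries, and 0.355% to 0.455% in female PLX libraries and 0.273% to 0.353% in female control libraries. In bulk RNA, fewer cells of a type and less RNA per cell cannot be told apart, and the part of these shifts in the results that follow was not tested.

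Transcript levels of the 265 genes were mostly low to moderate. The median gene averaged 786 normalised counts over the libraries, 161 genes averaged under 1000, and together they made up 0.740% to 0.880% of all counts of a library. Per kilobase of transcript, which allows levels of different genes to be compared, Zfp706 and Zfp207 were close together at 2510 and 2492 normalised counts, followed by the KRAB genes Zfp869 at 2044, Zfp69 at 1961 and Zfp90 at 1779. Before division by length, the 5 highest means were those of Zfp706 at 11080, Zfp710 at 9865, Zfp207 at 7222, Zfp740 at 6405 and Zfp90 at 4777. Zfp706 codes for a very small protein known for its role as mouse embryonic stem cells leave self-renewal, and Zfp207 for a spindle protein. Zfp207 and Zfp740 did not pass the test in either sex, with log2 changes on PLX of -0.04 and 0.08 in males and of 0.15 and -0.08 in females.

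By their translated coding sequences, 146 of the 265 genes matched a KRAB pattern and 119 did not. The KRAB genes had a median of 12 fingers and a median transcript GC content of 41.3%, against 8 fingers and 50.8% for the genes without KRAB. Their median level was 606 normalised counts, against 1267 for those without. The genes lie on 20 chromosomes, with 66 on chromosome 7, 33 on chromosome 17, 21 on chromosome 8 and 20 on chromosome 13. Near-copies are frequent: 49 genes share more than 10% of their 50-base words with transcripts of other genes, 43 of them KRAB genes, and 13 share more than 50%. For such genes the counting of reads could split or mix the copies, and their values are uncertain.

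The coding DNA of the first finger is shown for 5 genes on which the results turn, with the codons of the zinc-binding cysteines and histidines in capitals (GENCODE M21, strand of the transcript). Zfp710 and Zfp69 were called lower in both sexes as deposited, as was Zfp532, which is not shown. Zfp706 has the highest level and a single finger. Zfp991 and Zfp993 share 87% and 86.8% of their 50-base words with transcripts of other genes. Zfp991 was called higher in females and Zfp993 in males, as deposited.
Zfp710, chromosome 7: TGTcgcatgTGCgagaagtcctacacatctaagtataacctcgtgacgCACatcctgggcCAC
Zfp706, chromosome 15: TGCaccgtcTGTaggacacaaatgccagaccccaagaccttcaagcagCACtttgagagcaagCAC
Zfp69, chromosome 4: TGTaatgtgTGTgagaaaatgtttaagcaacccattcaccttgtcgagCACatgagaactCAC
Zfp991, chromosome 4: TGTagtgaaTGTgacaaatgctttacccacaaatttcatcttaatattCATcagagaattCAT
Zfp993, chromosome 4: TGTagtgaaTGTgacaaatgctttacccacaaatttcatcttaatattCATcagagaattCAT
The first fingers of Zfp991 and Zfp993 differ at 0 of 63 bases.

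In males, 11 zinc finger transcripts were lower on PLX, led by Zfp710, Zfp697 and Zfp775, and Zfp993 was higher, while most of the 265 genes did not pass the test. Calls are adjusted p-values under 0.05 by limma with Benjamini-Hochberg adjustment over all 19594 genes tested, on log2(value + 1). Of the 265 genes, 11 were lower and 1 was higher on PLX. That is 4.15% lower and 0.377% higher, against 7.52% lower and 4.16% higher of all genes tested, and 14% lower and 5.79% higher of the 9514 other protein-coding genes with a mean of at least 200. As deposited, the 4 PLX libraries lay below the 4 control libraries in 23 genes of the set, or 8.68%, against 9.84% of all genes tested and 17.1% of those other genes. They lay above them in 9 genes, or 3.4%, against 7.71% and 8.25%. The median log2 change of the set was -0.09, beside -0.10 for the other protein-coding genes of this level and 0.02 for all genes tested. It was -0.12 to -0.04 with 1 library left out, the value nearest 0 coming without male PLX sample 4. A change beyond 2-fold either way was seen in 1.89% of the zinc finger genes, against 6.39% of those other genes and 15.6% of all genes tested. The counts without overlap and the shares beyond 2-fold are given as deposited only, where male PLX totals were lower. The standard error of a log2 change was larger for the zinc finger genes, with a median of 0.22 against 0.17 for the other genes, and the part of this in the lower share of calls was not tested.

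Zfp710, which codes for 11 fingers and no KRAB domain, had 5596, 5251, 4165 and 6225 normalised counts in male PLX libraries, against 13430, 12630, 13340 and 13810 in male control libraries. The highest PLX library was below the level of the lowest control library by a wide margin. The means were 5309 ± 863 on PLX and 13300 ± 494 on control chow (SD, n = 4 each), a fall by 1.34 on the log2 scale (SE 0.11, adjusted p = 1.21e-06 by limma). The call held in 26 of 26 alternative settings, the equal library totals among them, where the change was -1.18.

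Zfp697, known in mouse skeletal muscle as an RNA-binding regulator of tissue repair, had 613, 701, 511 and 892 normalised counts in male PLX libraries, against 1536, 1695, 1667 and 1575 in male control libraries. The groups did not overlap, and the log2 change was -1.28 (SE 0.25, adjusted p = 0.00277 by limma). Zfp775 had 342, 277, 218 and 273 normalised counts in male PLX libraries, against 505, 742, 567 and 571 in male control libraries. Each PLX value of Zfp775 was again below each control value, and the log2 change was -1.10 (SE 0.24, adjusted p = 0.00503 by limma). Both genes lack a KRAB match, and both kept the call in 26 of 26 settings.

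Zfp706, Zfp90 and Zfp422 had smaller falls. Zfp706 had 8993, 7347, 7461 and 7718 normalised counts in male PLX libraries, against 12740, 13020, 9643 and 11380 in male control libraries. Zfp90, a KRAB gene, had 4204, 3886, 3396 and 3887 on PLX, against 5158, 5530, 6537 and 5183 on control chow. Zfp422, also known as Krox-26, had 1715, 1169, 1806 and 1547 on PLX, against 2067, 2595, 2584 and 2833 on control chow. The male groups did not overlap in any of these 3 genes. Their log2 changes were -0.56 for Zfp706 (adjusted p = 0.00586), -0.54 for Zfp90 (adjusted p = 0.00197) and -0.70 for Zfp422 (adjusted p = 0.00381), by limma, and each kept its call in 26 of 26 settings. In females Zfp706 had 9222 to 12040 on PLX and 11720 to 16400 on control chow, which overlapped, and its change of -0.40 did not pass the test as deposited (adjusted p = 0.0734) but did with equal totals (0.0245).

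A further 5 falls depended on the scaling of the libraries. They were Zfp787 with a log2 change of -0.50, Zfp532 with -0.46, Zfp451 with -0.44, Zfp69 with -0.41 and Zfp24 with -0.40. In each of the 5, the 4 male PLX libraries lay below the 4 male control libraries as deposited, as for Zfp787 with 1517 to 1729 on PLX and 2024 to 2647 on control chow. With equal library totals the limma adjusted p-values were 0.0785 for Zfp787, 0.256 for Zfp532, 0.2 for Zfp451, 0.212 for Zfp69 and 0.18 for Zfp24, and the changes kept their sign. Zfp24 is required for myelination by mouse oligodendrocytes, human ZNF451 attaches the small protein SUMO to others, and human ZNF532 belongs to a chromatin complex with ZNF592 and ZNF687. Zfp451 was named after its values were seen, because it was the remaining called gene.

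Of these 5 calls, that of Zfp787 was kept in 16 of 16 fits that left out 1 library, and the other 4 depended on single libraries. The Zfp24 call was lost without male PLX sample 2 (adjusted p = 0.0717), male control sample 1 (0.0567) or male control sample 2 (0.0561). The Zfp69 call in males was lost in 8 of 16 such fits, those without male PLX samples 1, 2 or 3, any male control sample or female control sample 4, with adjusted p up to 0.12. The Zfp532 call in males was lost in 7 of 16, without any of the 4 male PLX samples or male control samples 2, 3 or 4, with adjusted p up to 0.111. The Zfp451 call was lost in 10 of 16, with adjusted p up to 0.137 without male control sample 1. Without male PLX sample 2 the count of falls in the set was 7 in place of 11.

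The single call upward in males was Zfp993, a short KRAB gene that shares 86.8% of its 50-base words with other transcripts. It had 275, 231, 406 and 293 normalised counts in male PLX libraries, against 185, 144, 164 and 140 in male control libraries. The groups did not overlap, and the log2 change was 0.91 (SE 0.22, adjusted p = 0.0121 by limma). After a trend over GC content and transcript length was removed from each library, the adjusted p was 0.0573, and without male PLX sample 3 and male control sample 4 together it was 0.109.

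**Figure D1:**
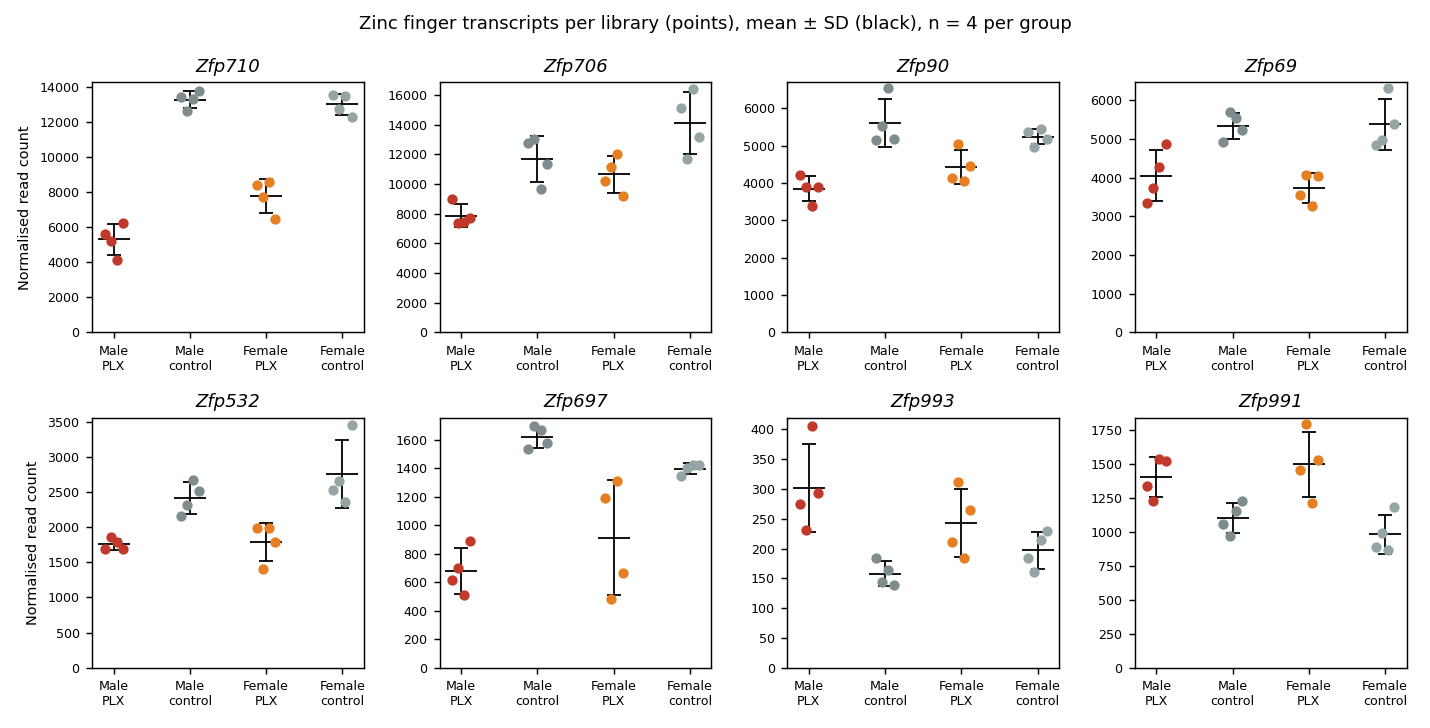
Normalised read counts of 8 zinc finger genes in each of the 16 libraries (points), with mean ± SD per group in black (n = 4 each). The y axis starts at 0 in each panel. Zfp710 shows a gap between PLX and control in both sexes, while Zfp697 has 2 of its 4 female PLX libraries close to the female control level.

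Equal library totals changed the balance of calls in males. With that scaling 11 of the 265 genes were higher and 6 were lower, or 4.15% and 2.26%, beside 6.88% and 4.68% of all genes tested and 10.3% and 8.61% of the other protein-coding genes of this level, and the median log2 change of the set was 0.07. The 6 falls were Zfp710, Zfp697, Zfp775, Zfp422, Zfp706 and Zfp90, all called as deposited too. Beside Zfp993, 10 rises were gained, among them Zfp395 with a log2 change of 1.30 (adjusted p = 0.029), Zfp109 with 1.18 (0.0443), Zfp704 with 0.97 (0.0426), Zfp346 with 0.88 (0.046) and Zfp157 with 0.54 (0.00929), by limma. Of the 11 rises, 4 were genes that share more than 10% of their words with others, Zfp59, Zfp976 and Zfp991 beside Zfp993. Male changes near 0 can thus have opposite signs under the 2 scalings, as the medians of -0.09 and 0.07 do.

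In females, Zfp710, Zfp532, Zfp69 and Zfp821 were lower on PLX, and Zfp991 and Zfp764 were higher. These are 1.51% lower and 0.755% higher of the 265 genes, against 2.67% lower and 2.67% higher of all genes tested, and 4.32% lower and 4.59% higher of the other protein-coding genes of this level. As deposited, the PLX libraries lay below the control libraries in 11 genes of the set, or 4.15%, against 5.26% of all genes tested and 7.25% of those other genes. They lay above them in 10 genes, or 3.77%, against 5.13% and 7.97%. The median log2 change of the set was 0.00, beside 0.01 for the other protein-coding genes, and with 1 library left out it was -0.03 to 0.03. It was below 0 without female PLX sample 2 or 4 or female control sample 3. A change beyond 2-fold was seen in 1.13% of the set, against 4.3% of the other protein-coding genes and 14.2% of all genes tested. Scaling to equal totals gave 5 lower and 1 higher. Without female PLX sample 1 or without female control sample 3, the count of falls was 2.

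Zfp710 had 8420, 7721, 8607 and 6486 normalised counts in female PLX libraries, against 13570, 12740, 13530 and 12330 in female control libraries. As in males, the groups were separate. The log2 change was -0.75 (SE 0.11, adjusted p = 0.000637 by limma), and the call held in 26 of 26 settings.

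Zfp69, a KRAB gene known as a diabetes susceptibility gene in mice, whose transcript a retrotransposon truncates in C57BL/6J, had 3553, 4080, 3273 and 4037 normalised counts in female PLX libraries, against 4859, 4971, 6316 and 5397 in female control libraries. In males it had 3343, 3730, 4275 and 4874 on PLX, against 4921, 5688, 5539 and 5240 on control chow. The groups were separate in both sexes, though male PLX sample 4 lay only just below the lowest male control library. The female log2 change was -0.53 (SE 0.12, adjusted p = 0.017 by limma). The female call was lost without female PLX sample 1 (adjusted p = 0.0529), female PLX sample 3 (0.054) or female control sample 3 (0.0619).

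Zfp532 had 1987, 1404, 1983 and 1795 normalised counts in female PLX libraries, against 2533, 2659, 2358 and 3454 in female control libraries. The groups did not overlap, and the log2 change was -0.62 (SE 0.14, adjusted p = 0.0119 by limma). With only the 2 female groups in the fit, the adjusted p was 0.0723.

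Zfp821, a gene with 2 fingers, had 248, 272, 284 and 291 normalised counts in female PLX libraries, against 699, 407, 466 and 495 in female control libraries. The female PLX values were close together and below each control value, and the log2 change was -0.89 (SE 0.23, adjusted p = 0.0306 by limma). The call was lost without female PLX samples 1, 2 or 3 or without female control samples 1, 3 or 4, with adjusted p from 0.0523 to 0.107. In males the groups overlapped, with 352 to 511 on PLX and 277 to 610 on control chow, and the log2 change of -0.17 did not pass the test (adjusted p = 0.715).

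Zfp991, an 11-finger KRAB gene, had 1460, 1795, 1215 and 1534 normalised counts in female PLX libraries, against 893, 994, 867 and 1185 in female control libraries. Each female PLX library was above each control library, and the log2 change was 0.60 (SE 0.15, adjusted p = 0.0195 by limma). The call was lost without female PLX sample 2 (adjusted p = 0.0721), female control sample 1 (0.0629) or female control sample 3 (0.0633). It shares 87% of its words with other transcripts, so its value cannot be assigned to this copy alone. Zfp764, a KRAB gene that shares 27.6%, had 1001 to 1382 on PLX and 683 to 885 on control chow, with a log2 change of 0.48 (adjusted p = 0.0454 by limma) that kept its call in 6 of 26 settings and in 3 of 16 fits that left out 1 library.

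**Figure D2:**
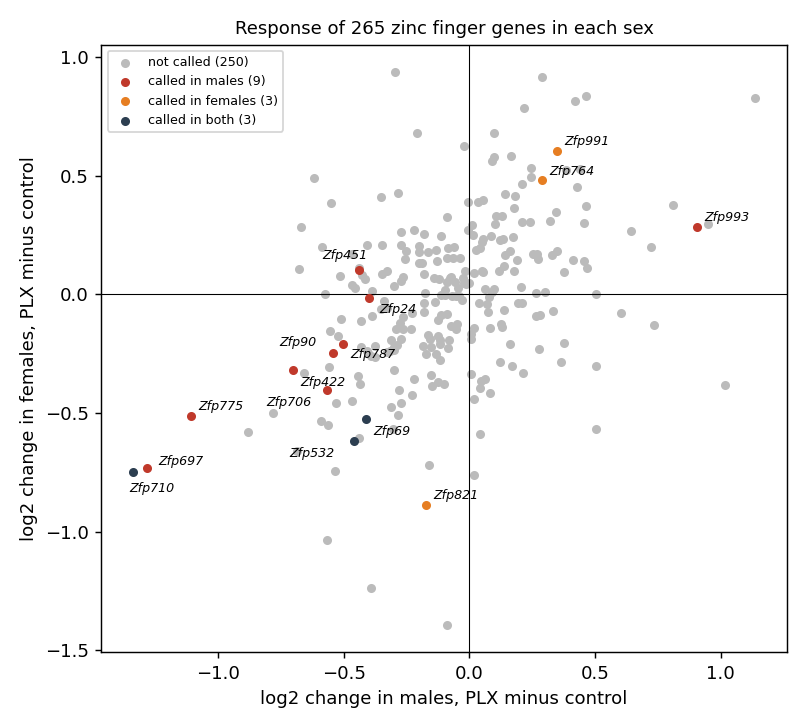
Log2 change on PLX in females (y axis) against males (x axis) for the 265 zinc finger genes, values as deposited. Of the 15 genes called in either sex, Zfp710, Zfp69 and Zfp532 (dark points) were called in both and lie in the lower left, while Zfp821 is low in females and near 0 in males.

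Across both sexes, 15 of the 265 genes were called in at least 1 sex, or 5.66%, against 13.2% of all genes tested and 21.9% of the other protein-coding genes of this level. As deposited, Zfp710, Zfp69 and Zfp532 were lower in both, or 1.13%, against 2.08% and 3.77% called lower in both. With equal library totals, Zfp710 and Zfp706 were the genes called lower in both. The male calls of Zfp69 (adjusted p = 0.212 by limma) and Zfp532 (0.256) were lost there. The log2 changes on PLX in males and in females share no library. Their p-values do, because the fit estimates the variance of a gene over all groups together. The male call of Zfp69 was thus lost without female control sample 4 (adjusted p = 0.0509 by limma). Calls in both sexes are therefore not independent tests. Changes were negative in both sexes for 94 genes, or 35.5%, against 30.2% and 38%, and positive in both for 71, or 26.8%, against 31.6% and 28.6%, as deposited. The difference between the responses, female response minus male response, had an adjusted p under 0.05 by limma for 0 of the 265 genes, as for 0% of all genes tested and of the other protein-coding genes of this level, and an unadjusted p under 0.05 for 17 of them, or 6.42%, against 10.3% and 14.4%. The smallest p-values in the set were those of Zfp710 with a difference of 0.59 (SE 0.16, adjusted p = 0.229), Zfp157 with -0.58 (SE 0.18, adjusted p = 0.291) and Zfp773 with 0.94 (SE 0.31, adjusted p = 0.308). The fall of Zfp710 was thus larger in males by value but was not shown to differ between the sexes. Its difference was 0.43 with equal library totals (adjusted p = 0.372).

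Between the sexes on PLX, females had more Zfp710, Zfp775, Zfp622 and Zfp597 and less Zfp157 than males. These 4 higher and 1 lower are 1.51% and 0.377% of the set, against 4.28% and 1.15% of all genes tested and 8.58% and 0.872% of the other protein-coding genes of this level. The counts over all genes tested, 838 higher and 226 lower, depended on single libraries and were 268 and 64 without male PLX sample 2. Zfp597 had 646, 737, 833 and 649 normalised counts in female PLX libraries, against 445, 360, 464 and 137 in male PLX libraries, a log2 difference of 1.16 (SE 0.32, adjusted p = 0.0459 by limma). Zfp622, whose yeast counterpart Rei1 acts in maturation of the large ribosomal subunit, had 3083, 2367, 2404 and 2987 in female PLX libraries, against 1386, 1733, 2043 and 1924 in male PLX libraries, a log2 difference of 0.62 (SE 0.16, adjusted p = 0.0406). Zfp157 had 1283 to 1614 in female PLX libraries and 1765 to 2363 in male PLX libraries, a log2 difference of -0.51 (SE 0.13, adjusted p = 0.0317). Female values lay on one side of the male values in each of these 3 genes.

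The log2 differences on PLX were 0.56 for Zfp710 (adjusted p = 0.0116) and 0.90 for Zfp775 (adjusted p = 0.0387), by limma. With equal library totals only the Zfp157 call remained of the 5 (log2 difference -0.71, adjusted p = 0.0097), and the median over the set was -0.12, in place of 0.08 as deposited. With only the 2 PLX groups in the fit, 0 of the 5 were called, with adjusted p of 0.108 for Zfp710, 0.13 for Zfp775, 0.108 for Zfp622, 0.139 for Zfp597 and 0.115 for Zfp157. Apart from the Zfp710 call, which held in 16 of 16 fits that left out 1 library, the calls held in 4 to 11 of 16, with adjusted p up to 0.111 for Zfp597 without female PLX sample 3.

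Between females and males on control chow, 0 of the 265 genes passed the test by limma in either direction, beside 0.0153% higher and 0.051% lower of all genes tested and 0% and 0.0946% of the other protein-coding genes of this level. An unadjusted p under 0.05 was found for 11 genes of the set, or 4.15%, against 5.19% and 5.32%. The smallest p-values were those of Zfp846 with a log2 difference of -0.81, Zfp777 with 0.88 and Zfp931 with -0.56, with adjusted p-values of 0.808 for the first and second and 0.924 for the third. Zfp846 had 312 to 604 normalised counts in female control libraries and 671 to 904 in male control libraries, which did not overlap.

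Few genes of either class, with or without KRAB, were called. In males, 2 of 146 KRAB genes were lower (Zfp90 and Zfp69) and 1 was higher, while 9 of 119 genes without KRAB were lower and 0 higher, beside 7.52% lower and 4.16% higher of all genes tested. With equal totals 6 KRAB genes were higher and 1 lower, and 5 genes without KRAB were higher and 5 lower, beside 6.88% higher and 4.68% lower of all genes tested. The median log2 change was -0.02 for KRAB genes and -0.15 for genes without KRAB in males, and 0.04 and -0.06 in females. The male medians were 0.14 and 0.01 with equal library totals, and -0.13 and -0.22 once GC content and length trends were taken out, so KRAB genes had the higher median in each of these 3 settings. This difference was not tested, nor was the part in it of sequence sharing and level, which differ between the classes as given above. The 49 genes with over 10% shared words had male and female medians of 0.02 and 0.10, against -0.09 and 0.00 for the other 216.

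**Figure D3:**
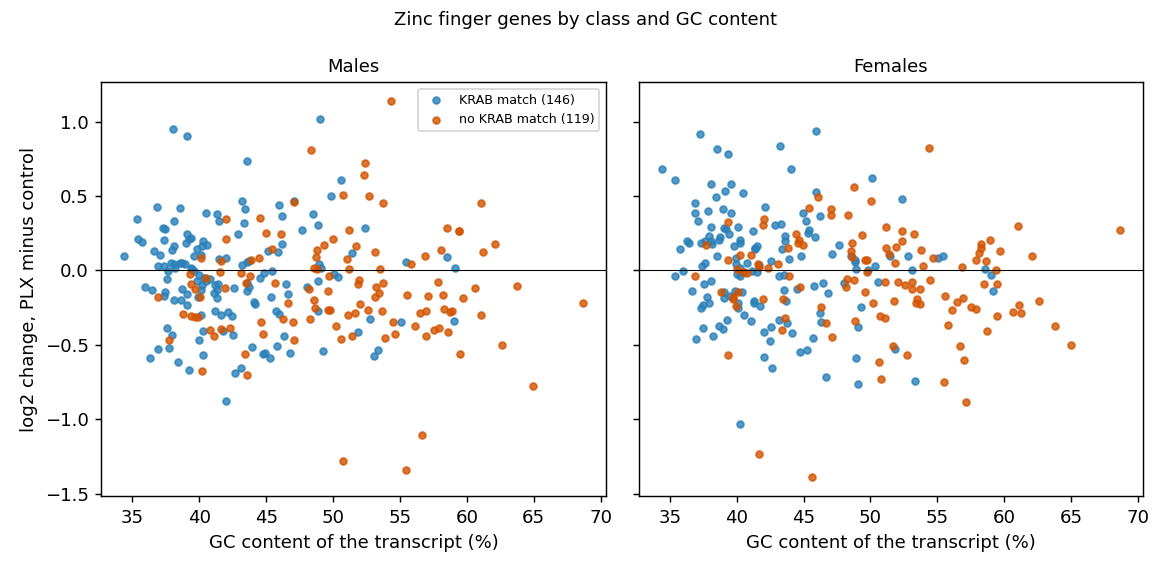
Log2 change on PLX (y axis) against GC content of the transcript in percent (x axis) for KRAB genes (blue) and genes without KRAB (orange), in males (left) and females (right). KRAB genes sit mostly at low GC content, and both classes scatter on either side of 0.

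**Figure D4:**
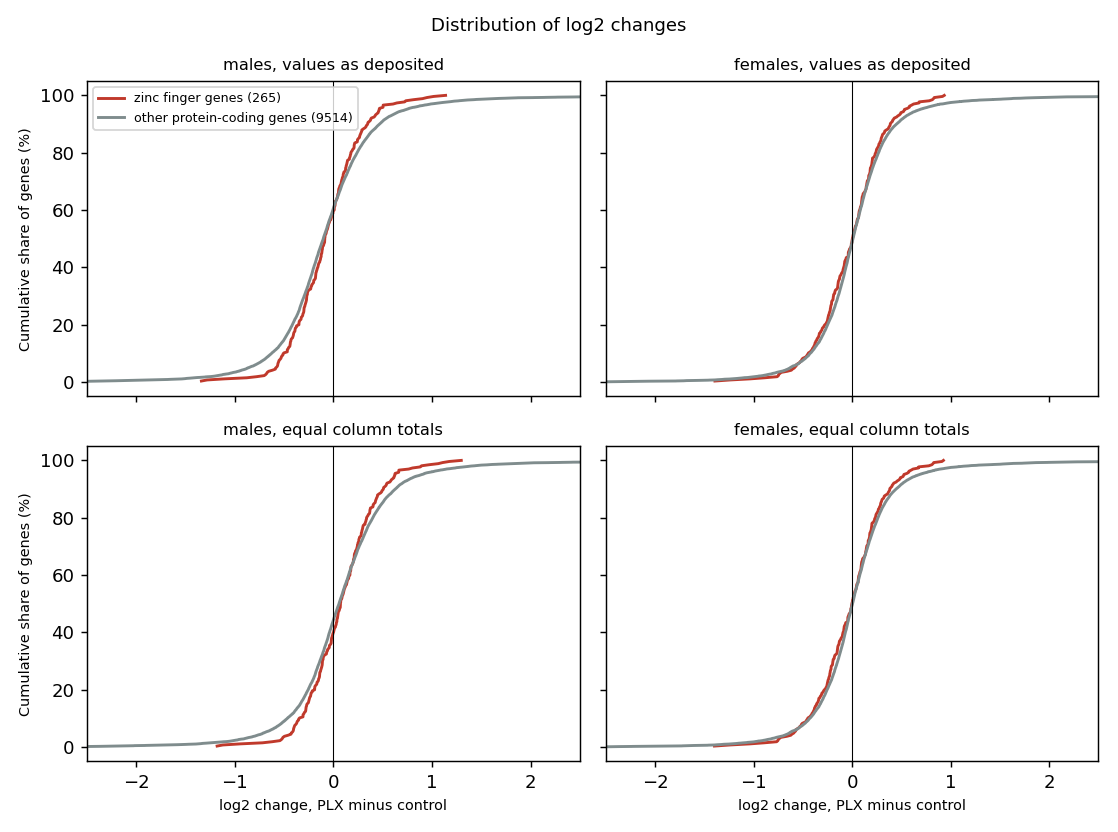
Cumulative share of genes in percent (y axis) by log2 change on PLX (x axis) for the 265 zinc finger genes (red) and 9514 other protein-coding genes with a mean of at least 200 (grey). Males are on the left and females on the right, with values as deposited above and equal library totals below. The red curves start and end closer to 0, while the middles of the curves lie close together.

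Among genes that silence imprinted genes and retroelements, Zfp57 was the only call. Of the 7 genes in this list, 5 belong to the set, and 0 of 7 were called in males and 1 of 7 in females. Of all genes tested, 7.52% were lower and 4.16% higher in males, and 2.67% each way in females. Zfp445, which maintains imprints together with Zfp57, averaged 3480 ± 597 normalised counts on PLX and 2779 ± 441 on control chow in males, and 3152 ± 454 and 2688 ± 1085 in females (SD, n = 4 each), with log2 changes of 0.32 and 0.31 that did not pass the test. Zfp809, which silences retroviral DNA, averaged 1250 ± 192 on PLX and 1136 ± 99.6 on control chow in males (log2 change 0.13), and 1433 ± 116 and 1153 ± 215 in females (0.33). The remaining set members were uncalled, with male and female log2 changes of 0.47 and 0.11 for Zfp568, a repressor of a placental Igf2 transcript, -0.17 and -0.25 for Zfp932 and 0.08 and -0.14 for Zfp638, which silences unintegrated retroviral DNA.

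Zfp57 and Zfp708 were too low for the set, with means of 28.5 and 82.1 normalised counts. Zfp57 was listed at 0 in female PLX samples 1, 2 and 3 and had 35.7 in sample 4, against 50.9, 90.8, 47.9 and 23.0 in female control libraries. The groups overlapped through female PLX sample 4, and the fitted change was called (adjusted p = 0.0178 by limma). In males Zfp57 had 3.73 to 21.9 on PLX and 11.2 to 79.4 on control chow and did not pass the test (adjusted p = 0.294). Zfp708 had 26.8 to 216 on PLX and 0 to 84.2 on control chow in males, with no call in either sex.

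Of 10 zinc finger genes tied to RNA, ribosomes or ubiquitin-like tags, Zfp451 was the only call in males as deposited and 0 were called in females, with median log2 changes of 0.06 and 0.17. With equal totals the Zfp451 call was lost, Zfp346 was called higher in males, and the male median was 0.22. Of 16 measured regulators known by name, such as Zfp143, Zfp148 and Zfp281, Zfp24 was the only call in males as deposited and 0 were called in females, with medians of -0.13 and -0.07. With equal totals 0 of these regulators were called in males, with a median of 0.03. By number of fingers, the male falls as deposited were 2 of 39 genes with 0 to 4 fingers, 4 of 71 with 5 to 9, 5 of 101 with 10 to 14 and 0 of 54 with 15 to 40. With equal totals the male falls in these classes were 1, 1, 4 and 0, and the rises 5, 1, 3 and 2. By chromosome, 2 of 66 genes on chromosome 7 were lower in males as deposited and 0 of 33 on chromosome 17, with medians of -0.13 and 0.02. With equal totals 4 genes on chromosome 7 were higher and 1 was lower (median 0.03), and 0 on chromosome 17 were called (median 0.18). Beside the counts as deposited, 7.52% of all genes tested were lower and 4.16% higher in males, and 2.67% each way in females. Of the other protein-coding genes with a mean of at least 200, 14% were lower in males. With equal totals, 6.88% of all genes tested were higher and 4.68% lower in males, and 10.3% and 8.61% of those other genes. None of these groups of genes was tested as a group.

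The machinery through which KRAB proteins act was represented by 32 genes, of which 31 were tested. In males 1 was higher and 5 were lower on PLX, and in females 0 were higher and 1 was lower. Of all genes tested, 4.16% were higher and 7.52% lower in males, and 2.67% each way in females. Of the other protein-coding genes with a mean of at least 200, 5.79% were higher and 14% lower in males. In females these shares were 4.59% and 4.32%. Trim28 itself averaged 2831 ± 301 normalised counts on PLX and 2958 ± 138 on control chow in males, and 2960 ± 391 and 3138 ± 615 in females (SD, n = 4 each), with log2 changes of -0.07 in both. Setdb1 had log2 changes of 0.16 in males and -0.05 in females, also uncalled.

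The genes called lower in males, Hdac1, Hdac2, Mta2, Rbbp4 and Rbbp7, code for subunits of histone deacetylase complexes. Other such subunits on the list were not called, with male log2 changes of -0.20 for Mta1, -0.43 for Chd3 and 0.29 for Chd4. Hdac2 had 1212, 1354, 1115 and 1419 normalised counts in male PLX libraries, against 2193, 1929, 1981 and 2302 in male control libraries, a log2 change of -0.72 (adjusted p = 0.00177 by limma). Rbbp4 fell by 0.52 (adjusted p = 0.0123), Mta2 fell by 0.33 (adjusted p = 0.0132), Hdac1 fell by 0.43 (adjusted p = 0.0225) and Rbbp7 fell by 0.42 on the log2 scale (adjusted p = 0.0443), by limma. Mphosph8, the subunit of the HUSH silencing complex that reads a repressive histone mark, had 933, 630, 707 and 898 on PLX, against 444, 485, 413 and 519 on control chow, a log2 change of 0.75 (adjusted p = 0.00747). With equal library totals Hdac2 and Mphosph8 kept their calls and the other 4 did not, while Resf1 was called higher (log2 change 0.53, adjusted p = 0.0233). In females Atrx, a chromatin remodeller, fell by 0.34 (adjusted p = 0.0499 by limma), which equal totals moved to 0.0805.

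Other zinc finger families were counted in the same fit. There, 7.52% of all genes tested were lower and 4.16% higher in males, and 2.67% each way in females. With equal totals the male shares were 4.68% lower and 6.88% higher. Of 31 BTB zinc finger genes, 3 were lower in males (Zbtb1, Zbtb7a and Zbtb22) and 0 in females. With equal totals Zbtb1 and Zbtb22 remained. Of 16 SCAN genes 0 were called in either sex as deposited, and Zscan26 was higher in males with equal totals (log2 change 0.49, adjusted p = 0.0374 by limma). A list taken by symbol for CCCH fingers held 19 identifiers of 18 genes, since Zc3h11a has 2, and includes Zc3hc1, whose finger is of another type. In males 0 of them were called as deposited and Zfp36l1 was higher with equal totals (log2 change 0.35, adjusted p = 0.0231), and in females Zc3h7b was lower under both scalings (log2 change -1.78, adjusted p = 0.00571 as deposited). Zbtb1, which lymphocyte development requires, had a male log2 change of -0.60 (adjusted p = 0.00167 by limma) and kept its call with equal totals (adjusted p = 0.0342).

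Promoters are shown for Zfp710 and Zfp69, which were called lower in both sexes as deposited (RefSeq, GRCm38.p6, 250 bases before to 50 bases after the start, on the strand of the gene). Zfp532, called lower in both too, is not shown, and the male call of Zfp69 was lost with equal library totals. Of the 265 genes, 222 matched a promoter in that table. Capitals mark AGGAAG, letters that hold the core bound by ETS factors such as PU.1, a factor microglia depend on. AGGAAG was searched on both strands, and GGGCGG, the letters read by Sp factors, likewise.
Zfp710, chr7:80024564-80024863, plus strand: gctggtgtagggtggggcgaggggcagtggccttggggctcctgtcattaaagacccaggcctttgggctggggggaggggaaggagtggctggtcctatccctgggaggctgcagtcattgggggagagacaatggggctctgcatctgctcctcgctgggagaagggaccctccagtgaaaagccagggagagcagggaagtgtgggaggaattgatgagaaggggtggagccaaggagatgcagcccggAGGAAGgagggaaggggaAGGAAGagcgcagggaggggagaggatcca
Zfp69, chr4:120951652-120951951, minus strand: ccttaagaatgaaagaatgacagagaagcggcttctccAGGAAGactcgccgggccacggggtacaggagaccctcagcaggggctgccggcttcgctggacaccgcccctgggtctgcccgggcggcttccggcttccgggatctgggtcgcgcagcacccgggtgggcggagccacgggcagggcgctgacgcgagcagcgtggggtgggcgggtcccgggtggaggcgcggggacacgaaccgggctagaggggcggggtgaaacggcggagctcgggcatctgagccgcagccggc
The Zfp710 window holds 2 AGGAAG, 0 GGGCGG and 4 CG, and the Zfp69 window 1 AGGAAG, 5 GGGCGG and 32 CG. AGGAAG was present in 37.4% of the 222 promoters of the set, beside 35.2% of 27025 promoters, and GGGCGG in 46.4%, beside 35.9%. With 2 or more copies counted, the shares were 7.21% beside 8.47% for AGGAAG and 17.1% beside 19.6% for GGGCGG. These are counts of letters and do not show binding.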

How the data were processed

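Each of the 16 libraries is 1 column of the deposited table. Per its name and values, the authors' table holds a normalised signal, read counts per gene scaled by library; the formula is not given in the sources used here. Per the submitters' processing notes, the tools named, without role or order, were Salmon 1.5.2, featureCounts 2.0.1, Subread, bcl2fastq 2.19.1 and STAR 2.7.9a, on the build GRCm39. Whole reads were not recovered, so no count model or counting interval was used, and precision is given as SD or SE.

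Symbols came from an Ensembl-based table for 51029 of 53850 identifiers. Another 27 identifiers with a mean of at least 200 had no symbol. The fit used limma 3.58.1 (R 4.3.3), on log2(value + 1), for genes reaching 10 in 4 or more libraries (intensity trend, 1 mean per group, 16 libraries, two-sided, Benjamini-Hochberg adjustment, threshold 0.05), after a test on simulated data. A fold on this scale understates the change of low genes. Fingers (cysteines 2 to 4 residues apart, 12 residues, histidines 3 to 5 apart) and a KRAB pattern, which can miss some boxes, were searched in coding sequences translated from GENCODE M21 transcripts (GRCm38), in place of the RefSeq proteins first planned. Transcript length, GC content and 50-base words shared with other genes' transcripts came from the same release. The set, the lists and the tests were chosen with earlier results of these data known. Named genes were the 8 rises and 8 falls with the smallest p among called genes in each PLX comparison, up to 5 each way in the others or the 3 smallest p-values where none was called, the 5 highest means, 3 genes on each side of the limit, the imprint and retroelement list, and up to 4 called co-repressor genes a comparison; Hdac1, Rbbp7, Resf1, the called Zbtb, SCAN and CCCH genes and genes of lists or of the equal-totals calls were named in addition, after their values were seen. Alternatives were equal library totals, upper-quartile scaling, pseudocounts of 0.5 and 5, 2 other filters, a fit of the groups compared alone, the replicate block, each library left out, and, added after the data were seen, removal of a GC and length trend and 2 libraries left out together.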

Additional observations from a re-analysis of the deposited data

Results flagged for a closer look

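Of 172 groups of 4 values tested for a sample apart from the rest, 5 were set apart, where chance alone gives about 1 in 20. Zfp821 had 510.9 normalised counts in male PLX sample 4 and 351.9 to 357.9 in the other 3 male PLX libraries. Zfp93, just inside the limit on the mean, had 571.6 in female PLX sample 3 and 142.1 to 207.5 in the other 3. Zfp583 had 280.5 in female control sample 1 and 163.4 to 171.2 in the other 3. Zfp57, below the limit, had 35.67 in female PLX sample 4 and was listed at 0 in the other 3. Zfp451 had 2555 in female control sample 4 and 1852 to 1932 in the other 3.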

How the results depend on the processing

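Counts of zinc finger genes called are given as higher and lower. As deposited they were 1 and 11 in males, 2 and 4 in females and 4 and 1 between PLX females and PLX males. With equal library totals they were 11 and 6, 1 and 5, and 0 and 1, and the median log2 changes were 0.0716 in males, -0.0799 for the female response minus the male response and -0.12 between the sexes on PLX. With upper-quartile scaling males had 4 and 7 with a median of -0.0137, females 1 higher, the sexes on PLX 0 higher with a median of -0.0736, the difference between responses a median of -0.0167 and the sexes on control chow a median of -0.021. A filter of 50 in 4 libraries gave 3 higher in males, 4 higher in females and 6 higher between the sexes on PLX. No filter gave 1 higher in females and 1 higher between the sexes on PLX. With only the groups compared in the fit, 0 were higher in females, and 0 were higher and 0 lower between the sexes on PLX. After removal of the GC and length trend 0 were higher in males (median -0.17), the difference between responses had a median of 0.17, and 11 were higher and 0 lower between the sexes on PLX (median 0.21). Without male control sample 4 and male PLX sample 3 together, 0 were higher in males and 1 was higher between the sexes on PLX. The replicate block gave 2 higher in males, 1 higher in females, and 2 higher and 0 lower between the sexes on PLX. Samples with the same number correlated at -0.045 to 0.021 in their deviations from the group means. No pairing by number was thus seen in the values, and whether such samples were handled together is not given in the sources used here.

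With each library left out, males had 1 to 3 higher and 7 to 14 lower, females 1 to 2 higher and 2 to 5 lower, and the sexes on PLX 1 to 4 higher and 0 to 1 lower. The causes of these shifts were not tested. Of the single-gene values under the alternatives, 5202 kept direction and side of the threshold, 199 lost the call, 17 gained it and 0 turned sign while called. The pseudocounts moved no count of calls. Low genes and genes with near-copies are the least certain.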
